A study of Mus musculus with 19 samples.

Results

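Cytosolic ribosomal proteins are the protein part of the ribosome that translates mRNAs made in the nucleus. The genes were taken from the count tables by symbol, as Rpl or Rps with a number and at most a short suffix, as in Rps15a or Rps4x. Rplp0, Rplp1, Rplp2 and Rpsa were added. Ribosomal S6 kinases, pseudogenes and some paralogues, such as Rpl36al and Rpl22l1, were left out. The rule gave 77 of the 20436 genes in the tables, of which 43 belong to the large subunit, 31 to the small subunit and 3 to the stalk. Of these, 76 had enough counts to be tested in each assay, and Rpl41 had 0 counts in all 19 libraries.

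The libraries came from hippocampal slices of wild-type male mice of postnatal day 28 to 42. Slices were exposed for 5 min to 100 µM DHPG, an agonist of group 1 metabotropic glutamate receptors, or to the artificial cerebrospinal fluid vehicle (basal), and all slices then received 100 µg/ml cycloheximide, which halts elongating ribosomes. RNA-seq was available for 4 basal and 5 DHPG samples and ribosome-protected fragments (RPFs, the mRNA pieces covered by a ribosome) for 5 basal and 5 DHPG samples. Each replicate pooled slices of 6 mice, and a basal and a DHPG sample with the same number come from one batch, so the slices of a pair were compared with each other.

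Most ribosomal protein mRNAs belong to the 5′ terminal oligopyrimidine (TOP) class, whose transcripts begin with a cytosine followed by an uninterrupted run of pyrimidines. This run lets the cell hold the mRNAs off ribosomes or release them onto ribosomes as a group, in response to mTOR signalling and through the cap-binding protein Larp1. In neurons the ribosomal proteins are made in the cell body and their mRNAs are also found in dendrites and axons. Group 1 metabotropic receptors signal to mTOR, and the long-term depression they induce needs protein synthesis, so the resting ribosome load of these mRNAs and its change within minutes of DHPG were both examined.

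The sequences around 6 annotated transcription starts are shown because these genes carry a pyrimidine run exactly at the start. In the ribosome load described next they run from the lowest member, Rpl14, to the second highest, Rpl38. The highest member, Rpl39, is not among them. They are RefSeq sequences of GRCm38.p6, read 5′ to 3′, from 10 bases before the start to 14 bases after the first transcribed base. Capitals mark the pyrimidine run from the first transcribed base.
Rpl14, chr9:120571507-120571531, plus strand: ggccctctctCTTCTCgctgagcgc
Rps27, chr3:90213634-90213658, minus strand: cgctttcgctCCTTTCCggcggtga
Rps15a, chr7:118116133-118116157, minus strand: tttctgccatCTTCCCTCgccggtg
Rps6, chr4:86857353-86857377, minus strand: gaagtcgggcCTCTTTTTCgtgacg
Rpl28, chr7:4792955-4792979, plus strand: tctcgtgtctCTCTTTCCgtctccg
Rpl38, chr11:114668570-114668594, plus strand: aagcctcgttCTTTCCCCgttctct

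A RefSeq start sequence was at hand for 57 of the 77 genes. A C followed by at least 4 bases that are each C or T, read on the transcribed strand only, stood exactly at an annotated start in 13 of the 57 genes (22.8%) and in 3.01% of the 27025 genes of the table. When the motif was allowed to begin within 10 bases on either side of the start, it was found in 34 of 57 genes (59.6%) and in 34.4% of all genes. The match depends on where the annotation places the start, and a gene without one may have its start annotated elsewhere.

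At rest the ribosomal protein mRNAs carried few footprints for their abundance. The 77 genes made up 2.58 to 3.18% of RNA counts in the 4 basal libraries and 1.10 to 1.25% of RPF counts in the 5 basal libraries. The ranges do not overlap, and the RPF share was the lower one in each of the 4 replicates with both assays. The mean difference was -1.77 percentage points (SD 0.317, n = 4, exact two-sided sign-flip permutation test, p = 0.13, which is the smallest p that 4 pairs allow). Per the study's methods, both assays of a replicate came from the same lysate. For the level in a single assay, fewer cells of a type and less RNA per cell cannot be told apart.

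RNA and RPF levels were also compared gene by gene, in counts scaled to the size of each library (CPM) and divided by the length of coding sequence over which reads were counted. Both tables appear to have been counted on coding sequences without their first and last 30 bases. The same region then enters both levels, so the ratio of RPF to RNA of a gene was taken without a length. A footprint is shorter than an RNA read and has more positions in that region, which matters most for short coding sequences. With an offset for these positions, given below, the ratios of the shortest genes were lower. The ratio is given in log2 relative to the median of all 12140 genes tested, which was set to 0 in each library pair, and a negative value means fewer footprints per RNA than the median gene.

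The median member had a log2 ratio of -1.06, that is 0.480 of the footprints per RNA of the median gene. In edgeR's quasi-likelihood test, 65 of 76 genes were below the median gene at an adjusted p under 0.05 and 5 were above it. Over all genes tested 35.4% were lower and 35.2% were higher by the same rule. The median of the members was -0.78, -1.16, -1.29 and -1.14 in replicates 1 to 4, and it was below 0 in each of them. In 65 of 76 genes (85.5%) the ratio was below 0 in every replicate, against 37.4% of all genes. Counted by rank, 52 genes lay in the lowest 25% of all genes and 25 in the lowest 10%, and 1 gene lay in the highest 10%.

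**Figure D1:**
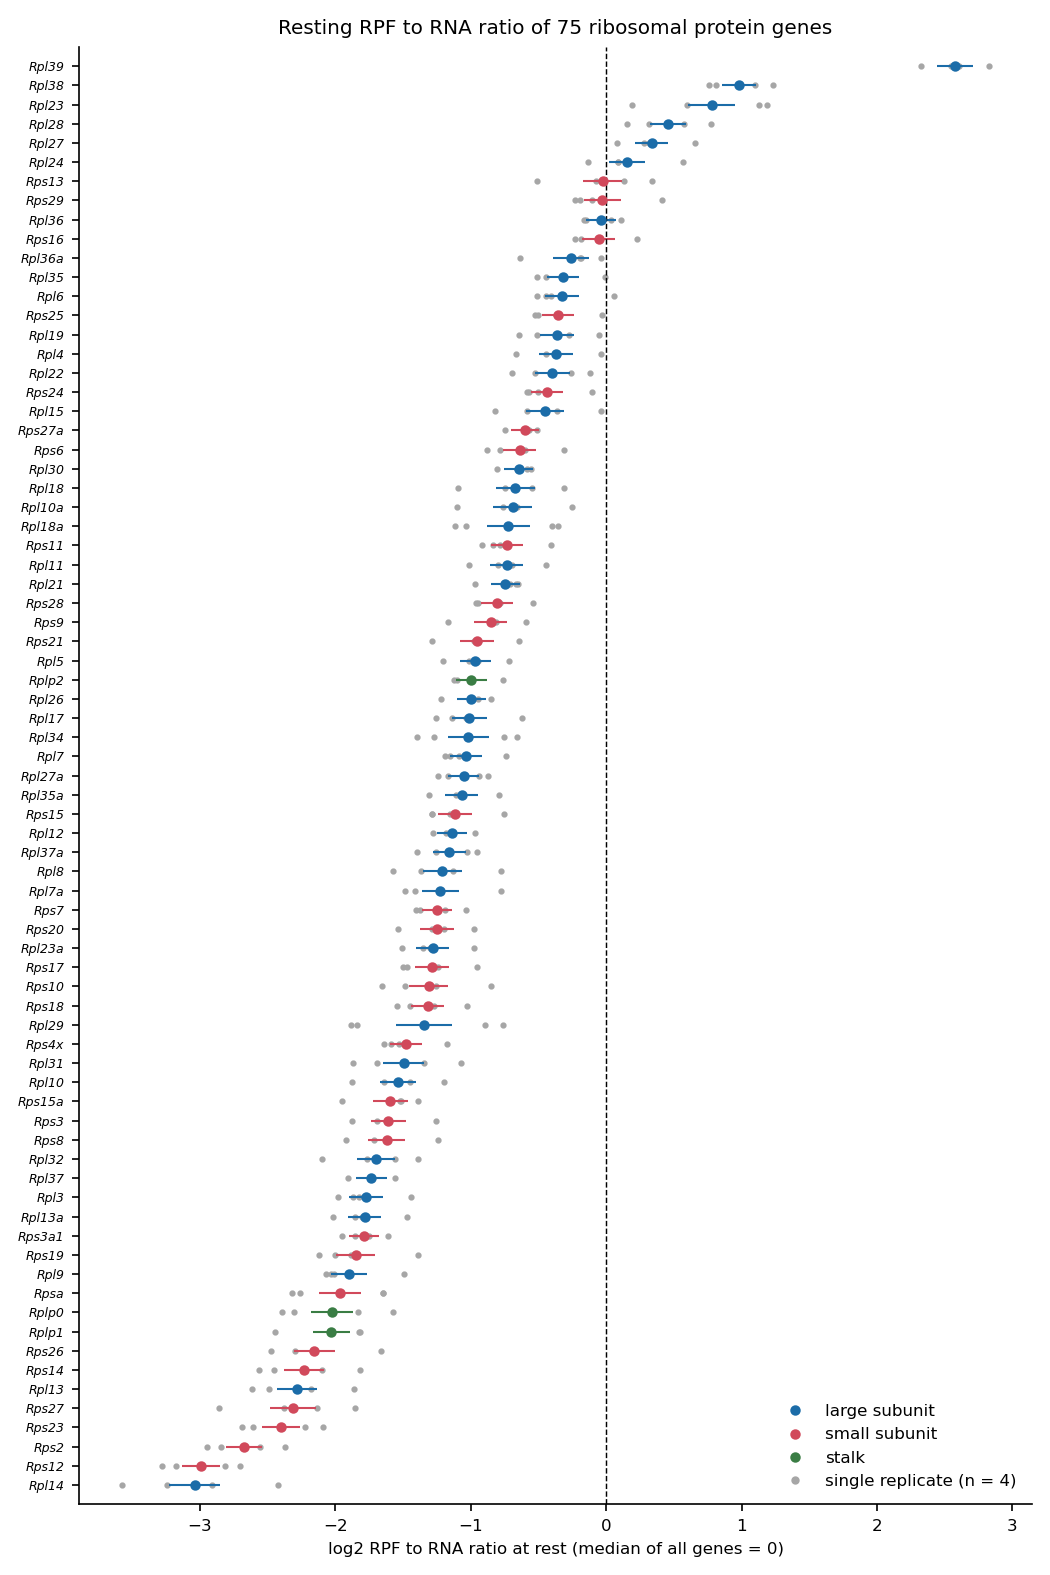
The log2 RPF to RNA ratio at rest is plotted on the x axis for each of 75 ribosomal protein genes, with the median of all genes at 0. Coloured points are the fitted ratio with its standard error, grey points are the 4 replicates, and 69 of the 75 fitted ratios lie below 0, from -3.04 for Rpl14 to 2.58 for Rpl39.

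The small subunit genes lay entirely on the low side. All 31 had a fitted ratio below 0, with a median of -1.31, and 28 of them passed the test. Among the 42 large subunit genes tested 36 were below 0, with a median of -0.98, and 34 passed the test as lower and 5 as higher. All 3 stalk genes passed as lower. These encode the acidic proteins P0, P1 and P2, which form the arm that recruits elongation factors, and their ratios were -2.02 ± 0.16 (SE) for Rplp0, -2.03 ± 0.14 for Rplp1 and -0.99 ± 0.11 for Rplp2. The difference between subunits was not tested.

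The 5 lowest ratios belonged to Rpl14, Rps12, Rps2, Rps23 and Rps27. Rpl14 (chr9:120571444-120574654, mm10), a large subunit protein, was at 324, 408, 468 and 357 CPM in basal RNA. In basal RPF it was at 53.7, 38.1, 35.1, 42.6 and 44.6 CPM. Its mean RNA level of 389 CPM was above that of the median member (342 CPM) while its mean footprint level of 42.8 CPM was far below the median member (148 CPM), and the ratio was -3.04 ± 0.19 (adjusted p = 4.82e-06).

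Rps12 (chr10:23785183-23787275) was at 329 to 447 CPM in RNA and at 40.9 to 51.3 CPM in RPF, with a ratio of -2.99 ± 0.14 (adjusted p = 2.19e-06). Rps2, which lines the mRNA entry channel, had one of the most abundant RNAs of the group at 1010.1 to 1386 CPM, with 158 to 179.6 CPM of footprints and a ratio of -2.68 ± 0.13. Rps23, a protein of the decoding centre, was at 149 to 189 CPM in RNA and 23.2 to 32.3 CPM in RPF, with a ratio of -2.40 ± 0.14. Rps27 followed at -2.31 ± 0.17. In each of these genes all 4 replicates were below -1.8. Rpl14 and Rps12 differ from each other by less than their standard errors, as do Rps23 and Rps27, so the order within each of these pairs is uncertain.

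At the other end were Rpl39, Rpl38, Rpl23, Rpl28 and Rpl27, all of the large subunit. Rpl38 (chr11:114668524-114672331), a small protein known from mice with skeletal patterning defects, was at 104, 108, 127 and 122 CPM in RNA. In RPF it was at 199, 225, 199.9, 185 and 188 CPM, higher than its RNA in every replicate. Its ratio was 0.98 ± 0.12 (adjusted p = 0.000122). Rpl23 was at 0.78 ± 0.17, Rpl28 at 0.46 ± 0.13 and Rpl27 at 0.34 ± 0.12.

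Rpl39, which lines the exit tunnel for the growing peptide, had the highest ratio at 2.58 ± 0.13 (adjusted p = 2.77e-06). It was at 16.2, 18.3, 20.5 and 16.2 CPM in RNA and at 78.9 to 102 CPM in RPF. Its coding sequence has 156 bases, and the counted part leaves 67 positions for a 30-base footprint and 35 for a 62-base RNA read. With an offset for these positions its ratio was 1.68, still the highest, and those of the next-shortest genes moved from -0.03 to -0.70 for Rps29, from -0.81 to -1.21 for Rps28 and from 0.98 to 0.59 for Rpl38. The counted part of Rpl41 has 18 bases and can hold neither kind of read, so its 0 counts say nothing of its level. With this offset 67 genes were called lower and 4 higher, with a median of -1.21.

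The other genes of known role fell between these ends. Rpsa, the laminin receptor homologue of the small subunit, was at -1.96 ± 0.15, and Rpl3, which sits beside the peptidyl transferase centre, at -1.77 ± 0.12. Rps3, at the mRNA entry site, was at -1.61 ± 0.13 and the X-linked Rps4x at -1.48 ± 0.12. Rpl5 and Rpl11, which accompany 5S rRNA into the ribosome and bind Mdm2 when free, were at -0.96 ± 0.12 and -0.73 ± 0.12.

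Rps6, the main substrate of S6 kinase in the ribosome, was at -0.64 ± 0.12 (adjusted p = 0.00154). Rps27a, made as a fusion with ubiquitin, was at -0.60 ± 0.10. Rpl22, Rpl4 and Rps25 lay nearer to the median gene than most members as well, at -0.40 ± 0.13, -0.37 ± 0.13 and -0.35 ± 0.12, and their adjusted p values were 0.0221, 0.0259 and 0.0254. The 6 genes that did not pass were Rpl36a, Rps16, Rpl36, Rps29, Rps13 and Rpl24, with ratios from -0.26 to 0.16. With the offset for read positions Rpl36a (-0.43, adjusted p = 0.016) and Rps29 (-0.70, adjusted p = 0.00164) passed as lower. Rpl27 (0.23, adjusted p = 0.132) then did not pass.

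The order of the genes was stable between libraries. Across the 76 genes the ratios of any 2 replicates had a Pearson r of 0.940 to 0.987, highest between replicates 2 and 3 (0.987) and between replicates 1 and 4 (0.985). The SD between members was 0.915, against a median SD of 0.259 between the replicates of a gene. The DHPG libraries, which did not enter this fit, gave medians of -1.44 to -0.82 over 5 replicates. There 62 genes were below 0 in every replicate and 5 above it, and the mean ratios of the 76 genes had a Pearson r of 0.997 with those at rest. The 2 sets of libraries share batches of animals.

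**Figure D2:**
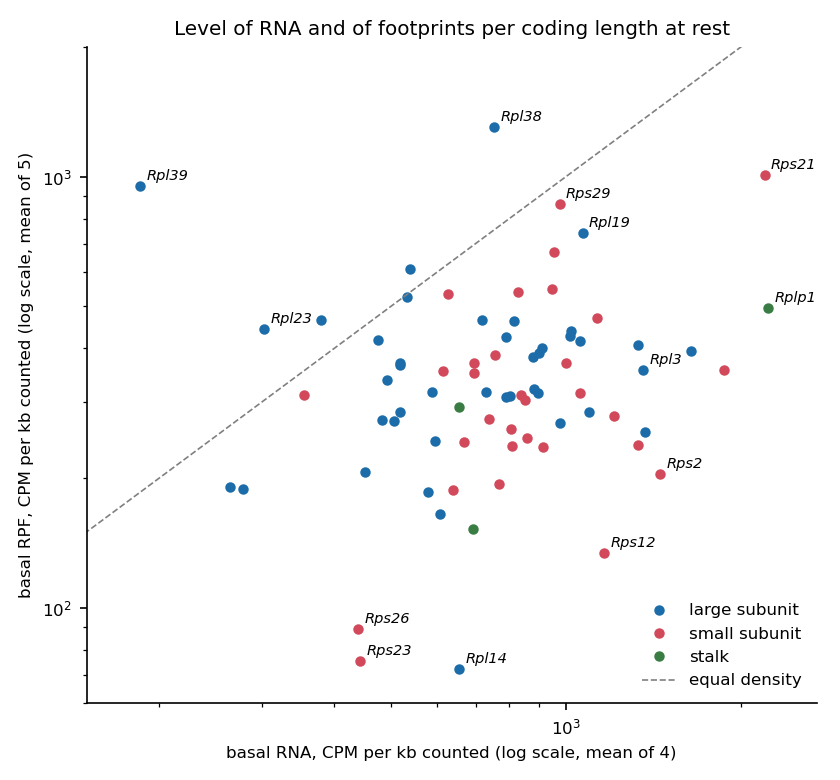
Basal RPF is plotted against basal RNA, both as mean CPM per kb of counted coding sequence on log axes, for the 76 genes with counts. Points below the dashed line of equal density have fewer footprints than RNA reads for their length, and Rpl39, Rpl38 and Rpl23 stand above it while Rpl14, Rps12 and Rps2 stand far below.

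All proteins but P1 and P2 of the stalk are present once per ribosome, yet the levels per coding length were spread widely in both assays. In basal RNA they ran from 186 CPM per kb for Rpl39 to 2231 CPM per kb for Rplp1, with a median of 789. The genes at both RNA ends depend on the divisor. When basal RNA was divided by the positions where a read can lie, the range was 343 to 3222.5, with a median of 919. Rpl39 was then no longer the lowest and Rplp1 no longer the highest. In basal RPF the levels per coding length ran from 72.1 CPM per kb for Rpl14 to 1303 CPM per kb for Rpl38, with a median of 319. In log2 the SD across members was 0.665 for RNA and 0.751 for RPF, so footprint density was not more even among members than RNA density. RNA and RPF densities were only weakly related across the 76 genes (Pearson r = 0.171, Spearman rho = 0.209, across genes of the same libraries). Without Rpl39 these were 0.286 and 0.255. The ratio and coding length had a Pearson r of -0.358 and a Spearman rho of -0.245, and without Rpl39 the r was -0.252. With the offset for read positions the r was -0.254, and -0.152 without Rpl39.

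Processed pseudogenes are numerous in this family. Of the 30-base windows in the counted sequence, none was free of a copy at another annotated locus for 34 of the 76 genes. Some of these genes nevertheless had high counts, such as Rpl19 with 393 CPM of footprints at rest, so the windows do not show which reads were kept. The levels of members with close copies, and their ratios, are uncertain for this reason. Windows of the longer RNA read were not examined, so an unequal loss of reads in the 2 assays was not tested. The shares of such windows were not compared with those of the other lists. Among the 11 genes with at least 25% of windows found nowhere else, the ratio was below 0 in all 11, from -2.23 to -0.37 with a median of -1.21. In the 65 others it ran from -3.04 to 2.58 with a median of -1.04. Against other genes of the count tables alone, 70 genes had no shared window, and Rpl31, Rplp2 and Rpl21 shared over 50% of theirs.

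The motif at the start did not separate the genes. The 13 genes with a pyrimidine run exactly at an annotated start had a median ratio of -0.99 and ranged from Rpl14 at -3.04 to Rpl38 at 0.98. The 43 tested genes with a start sequence but no run there had a median of -1.05, from -2.99 to 2.58. When the motif could begin within 10 bases of the start, the medians were -1.03 for 34 genes with it and -1.06 for 22 without. Genes without a match may have their start annotated elsewhere, so neither split compares TOP mRNAs with other mRNAs. Of the sequences printed above, Rps27 was at -2.31, Rps15a at -1.59, Rps6 at -0.64 and Rpl28 at 0.46. With the length of the longest whole transcript used for RNA, Rps15a was at 1.34, on the other side of the median gene.

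Other protein complexes of similar kind lay on the other side of the median gene. Mitochondrial ribosomal proteins, which serve the separate ribosome inside mitochondria, had a median of 0.56 over 77 genes, with 47 called higher and 2 lower. Proteasome subunits had a median of 0.55 over 36 genes tested, with 23 higher and 4 lower. In each of the 4 replicates the median of the cytosolic ribosomal proteins (-1.29 to -0.78) was below those of the mitochondrial ribosomal proteins (0.29 to 0.73) and of the proteasome (0.52 to 0.70). The difference between the lists was not tested, and neither was the part of reads from close copies in it.

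Other mRNAs of the TOP class did not share one level. Of 16 such genes 5 were called lower and 5 higher, with a median of -0.17. The elongation factor genes Eef1g, Eef1a1 and Eef2 were at -1.74 ± 0.11, -1.67 ± 0.12 and -1.33 ± 0.13, within the range of the ribosomal proteins. Npm1 and Nap1l1, histone and ribosome assembly chaperones, were at 3.07 ± 0.27 and 2.17 ± 0.23. Tpt1 was at 0.41 ± 0.10 and the poly(A)-binding protein gene Pabpc1 at -0.76 ± 0.12.

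Of the ribosomal proteins that the symbol rule leaves out, Gnb2l1 (the gene of Rack1) was at -1.83 ± 0.14. Fau, fused to a ubiquitin-like protein, was at -0.16 ± 0.13 and did not pass (adjusted p = 0.29). The paralogue Rpl36al was at 1.76 ± 0.12. Of the 12 genes listed, 7 were tested, and 3 were called lower and 2 higher. Genes that assemble the ribosome (23 tested) had a median of 0.59, with 15 called higher and 3 lower. Genes of the mTOR pathway and other TOP mRNA regulators (15 tested) had a median of -0.0023, with 7 higher and 5 lower. Larp1 was at -0.0023 ± 0.11, Mtor at -0.92 ± 0.11 and Rheb, which activates mTOR, at 1.63 ± 0.17.

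After 5 min of DHPG no ribosomal protein gene passed the test in RNA. At an adjusted p under 0.01, 0 of 76 genes were called, and 0.00773% of the 12935 genes tested. At an unadjusted p under 0.05, 2 of the 76 were lower and 0 higher, where 2.81% of all genes were lower and 5.2% higher. The median log2 change was -0.037, with 52 genes below 0 and 24 above, against 0.0068 for all genes. The 2 lower genes became 22 without replicate 2 and 15 with ComBat followed by DESeq2. The widest standard error of a member was 0.135 and the median 0.076 on the log2 scale.

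The RNA values of the family shared one direction within some pairs of slices, and the direction was opposite in 2 of them. In pair 2 the median change was 0.21 with 73 of 76 genes higher after DHPG, and in pair 4 it was -0.33 with 75 of 76 genes lower. In pairs 1 and 3 the medians were 0.0015 and -0.027. The median of all genes was between -0.00036 and 0.019 in these pairs. Without replicate 4 the fitted median was 0.066, with 63 genes above 0, and without replicate 2 it was -0.12, with 69 below 0. The direction of the RNA change thus depended on 1 pair.

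**Figure D3:**
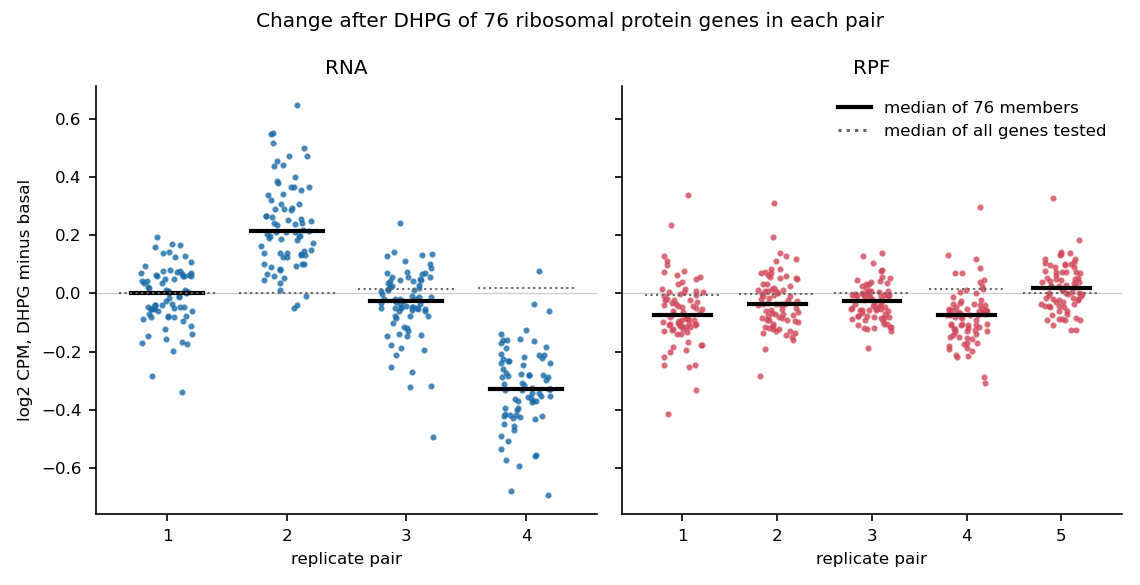
The change in log2 CPM (DHPG minus basal) of the 76 genes is plotted by replicate pair, for RNA on the left and RPF on the right. Black bars are the medians of the members and dotted bars those of all genes tested; in RNA the members lie high in pair 2 (median 0.21) and low in pair 4 (median -0.33), and in RPF the 5 medians lie between -0.076 and 0.018.

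Other protein complexes were also below 0 in pair 4. There the medians were -0.21 for mitochondrial ribosomal proteins, with 69 of 77 lower, and -0.22 for proteasome subunits, with 33 of 37 lower. In pairs 1 to 3 they were -0.055, 0.013 and -0.12 for the mitochondrial ribosomal proteins and -0.11, 0.060 and -0.16 for the proteasome. Their fitted RNA medians were -0.10 with 67 of 77 lower and -0.10 with 33 of 37 lower, further below 0 than the -0.037 of the members. The summed level of the 6 oligodendrocyte markers ranged from 2462 to 5282 CPM in basal RNA and from 2812 to 6034 CPM after DHPG. Their median change was 0.22 in pair 2 and 0.21 in pair 4, and that of the 5 pyramidal cell markers 0.053 and 0.25. Both marker lists were above 0 in both pairs. The 6 astrocyte markers had medians of 0.032 and -0.074 and the 4 CA1 markers -0.093 and 0.32. The 5 thalamus markers tested in RNA were higher after DHPG in all 4 pairs, with medians of 0.34, 1.11, 0.45 and 0.63, and the 5 endothelial markers had a median of -0.74 in pair 2 and -0.074 in pair 4. The part of these cells in the RNA values was not tested.

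Single RNAs followed the same course. Rps23 had the smallest p of the lower genes, at 155, 149, 189 and 168 CPM in basal RNA. After DHPG it was at 139, 171, 152, 104 and 119.6 CPM. The groups overlap, and the fitted change was -0.25 ± 0.09 (adjusted p = 0.554). Rps15a was at 194 to 241 CPM before and 148 to 248 CPM after DHPG, with a change of -0.22 ± 0.09 (adjusted p = 0.577), and Rpl30 at -0.16 ± 0.08. Both Rps23 and Rps15a were lower in pairs 1, 3 and 4 and higher in pair 2, and without replicate 2 both passed, at -0.39 (adjusted p = 0.00712) and -0.39 (adjusted p = 0.00391).

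Among the higher genes the smallest p values were those of Rpl28 (0.11 ± 0.07), Rpl29 (0.08 ± 0.07) and Rpl23 (0.11 ± 0.10), with adjusted p of 0.738, 0.797 and 0.819. Rpl28 was the only member higher in all 4 pairs, and none was lower in all 4, whereas 8.67% and 6.97% of all genes were.

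The footprints of most members lay slightly below the basal level after DHPG, and no gene passed the test. At an adjusted p under 0.05, 0 of 76 genes were called, where 0.22% of the 13208 genes tested were. Of the 76 genes 60 were below 0 and 16 above, and the median log2 change was -0.038, which is 0.974 of the basal level, against 0.0031 for all genes. At an unadjusted p under 0.05, 18 genes were lower and 2 higher. Over all genes 4.21% were lower and 6.55% higher, so that 23.7% of the members against 4.21% of all genes lay on the lower side. The median standard error was 0.034 for the members and 0.060 for all genes. A small change of the same size thus passes this level more often in a member, and the 2 shares are not like for like. The 18 genes became 5 without replicate 4, 8 without replicate 2 and 10 without replicate 1, and 19 and 23 without replicates 3 and 5. They became 6 with DESeq2 and the replicate block and 1 in edgeR without the block.

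By pair the median change in RPF was -0.076, -0.035, -0.028, -0.075 and 0.018, and that of all genes was between -0.007 and 0.014. In pairs 1 to 4 between 48 and 63 of the 76 genes were lower, and in pair 5 it was 33. The 6 thalamus markers had RPF medians of 0.31, 0.89, 0.94 and 0.49 in pairs 1 to 4, with 6 of 6 higher after DHPG, and of -0.085 in pair 5, with 2 of 6 higher. Their part in the RPF values was not tested. The share of the RPF counts taken by the 77 genes was 1.10 to 1.25% before and 1.06 to 1.23% after DHPG. It was lower after DHPG in 4 of 5 pairs, by a mean of -0.043 percentage points (SD 0.0364, n = 5, exact two-sided sign-flip permutation test, p = 0.13, with 0.062 the smallest p that 5 pairs allow). In RNA the share was 2.58 to 3.18% before and 2.43 to 3.38% after DHPG, and the mean difference was -0.069 percentage points (SD 0.448, n = 4, p = 0.625 in the same exact test).

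Values below 0 were found in both subunits. In RPF 36 of 42 large subunit genes were below 0, with 13 of them at an unadjusted p under 0.05, and 23 of 31 small subunit genes were below 0, with 5 at that level. The medians were -0.042 and -0.030. Of the stalk genes Rplp0 was at -0.05 ± 0.03, and Rplp1 and Rplp2 were at 0.03 ± 0.03 and 0.06 ± 0.04. Of all genes, whose median standard error was wider (0.060 against 0.034), 4.72% were lower in all 5 pairs. Among the members 14 genes (18.4%) were. They were Rpl3, Rpl5, Rpl7, Rpl10, Rpl11, Rpl21, Rpl22, Rpl23, Rps3, Rps4x, Rps6, Rps14, Rps20 and Rps24.

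Rpl7 (chr1:16101295-16104662), an RNA-binding protein of the large subunit, came closest to the threshold. Its footprints were at 270.4, 226, 227, 230.2 and 237 CPM at rest. After DHPG they were at 235, 202, 214, 204 and 229.8 CPM, lower in all 5 pairs although the groups overlap. The change was -0.13 ± 0.03 (adjusted p = 0.068), and over the 12 alternatives the adjusted p ran from 2.4e-05 to 1.

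Rpl21 (chr5:146832890-146837032) was at 192, 178, 172, 166 and 189 CPM at rest. After DHPG it was at 161, 169.9, 162, 151 and 173 CPM, lower in all 5 pairs by -0.25 to -0.066. The change was -0.13 ± 0.03 (adjusted p = 0.0949), and 34% of its windows are free of copies in other genes of the tables. Rpl3 was at 384 to 442 CPM before and 365 to 416 CPM after DHPG, with a change of -0.08 ± 0.03 (adjusted p = 0.303). Rps6 was at 223 to 267 CPM before and 217 to 254.5 CPM after, with a change of -0.06 ± 0.03 (adjusted p = 0.45), and Rpl4, Rpl5, Rpl11 and Rps3 lay between -0.09 and -0.07.

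Rps28, a small protein near the mRNA exit, lay on the other side. It was at 56.5, 56.3, 54.9, 61.3 and 60.1 CPM at rest. After DHPG it was at 71.4, 59.7, 56.3, 64.3 and 66.1 CPM, higher in each of the 5 pairs and the only member for which this held. The change was 0.11 ± 0.04 (adjusted p = 0.317). Rps29 was at 0.08 ± 0.04 (adjusted p = 0.452), with 2 pairs lower and 3 higher. Rpl38, with the second highest ratio at rest, was at 0.01 ± 0.03, and Rpl14, with the lowest, at 0.06 ± 0.05.

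**Figure D4:**
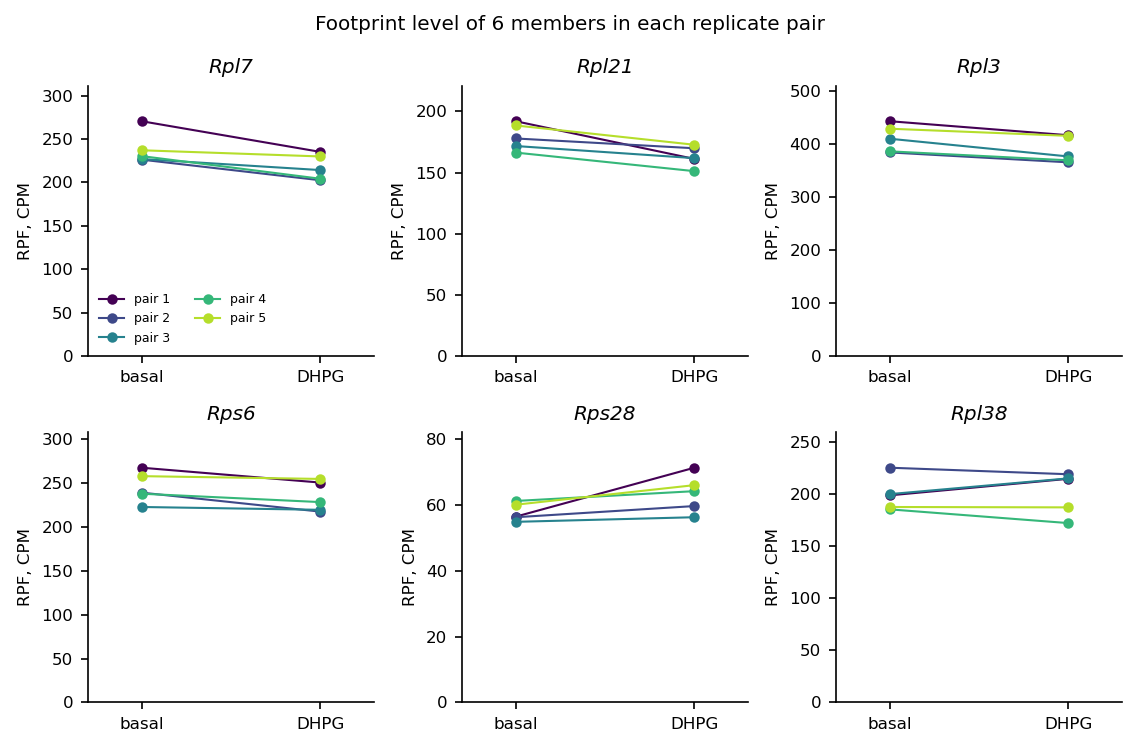
Footprint levels in CPM (y axis, from 0) are plotted before and after DHPG for 6 genes, with a line for each of the 5 replicate pairs. Rpl7, Rpl21, Rpl3 and Rps6 are lower after DHPG in 5 of 5 pairs, Rps28 is higher in 5 of 5, and the lines of Rpl38 cross.

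Other TOP mRNAs gave RPF values of the same size. Of the 16 genes 15 were below 0, with a median of -0.049, and 4 were lower at an unadjusted p under 0.05, with none called. Pabpc1 was at -0.10 (adjusted p = 0.307) and Npm1 at -0.10 (adjusted p = 0.226). In RNA 11 of the 16 were above 0, with a median of 0.029. The RPF medians of the other lists were -0.012 for mitochondrial ribosomal proteins, -0.021 for proteasome subunits, -0.028 for genes of ribosome assembly, -0.0056 for mTOR and TOP regulators, and 0.0039 for the ribosomal proteins outside the symbol rule. In the same order 46 of 77 (59.7%), 28 of 36 (77.8%), 17 of 23 (73.9%), 10 of 16 and 3 of 7 genes were below 0. At an unadjusted p under 0.05, 3, 1, 1, 2 and 0 were lower. The members had 60 of 76 below 0 (78.9%) and 18 at that level. A share below 0 like that of the members was thus also found in the proteasome. None of these lists held a call in RNA or RPF.

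Translation efficiency (TE), the change in RPF beyond the change in RNA, was tested as the interaction of assay and treatment over the 19 libraries. No gene of the tables was called at an adjusted p under 0.05, so the share called was 0% of 12691 genes. At an unadjusted p under 0.05 none of the 76 members was called, where 3.63% of all genes were lower and 3.14% higher. The median of the members was -0.0059, with 40 below 0 and 36 above, and that of all genes was -0.0014.

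The TE values of the pairs mirrored the RNA. The median of the members was -0.045 in pair 1, -0.26 in pair 2 with 70 of 76 genes lower, -0.0047 in pair 3 and 0.22 in pair 4 with 2 of 76 lower. The smallest p values among the higher genes were those of Rps15a (0.20 ± 0.11, adjusted p = 0.767), Rps21 (0.12 ± 0.07) and Rps28 (0.14 ± 0.09). Among the lower genes they were those of Rpl23 (-0.18 ± 0.11, adjusted p = 0.775), Rpl6 (-0.11 ± 0.07) and Rplp0 (-0.11 ± 0.07). Over the remaining lists the TE medians were 0.080 for mitochondrial ribosomal proteins, 0.077 for proteasome subunits and -0.070 for other TOP mRNAs, with no call in any of them.

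Total counts ranged from 4870813 to 7793244 per RNA library and from 5692064 to 22092434 per RPF library. The 77 genes received between 143807 and 211483 counts in each RNA library and between 67862 and 246355 in each RPF library, so that counting error is small for all but the rarest members. Markers of pyramidal cells (5 genes, 3163 to 5400 CPM in basal RNA), astrocytes, oligodendrocytes, interneurons, microglia, CA1, CA3 and dentate granule cells were all detected. Endothelial (46.4 to 74.2 CPM) and choroid plexus markers (24.8 to 33.6 CPM) were low, with 1 choroid plexus gene at 0 in RNA. The 6 thalamus markers summed to 106 to 134 CPM in basal RPF and to 113 to 178 CPM after DHPG.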

How the data were processed

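RNA-seq and ribosome profiling of 19 wild-type hippocampal slice samples were analysed. The authors deposited one table of expected counts per gene from RSEM for each assay, given as whole numbers, after adapter trimming with cutadapt, removal of rRNA and tRNA with Bowtie2, and alignment of unique reads to mm10 with TopHat2, with duplicates removed by molecular identifiers. A further 12 columns could be tied to none of these samples and were left out. Per the methods, gene levels came from coding sequences without 30 bases at each end for RPFs and from whole transcripts for RNA. For the ratio of RPF to RNA at rest the study mapped both assays to coding sequences, leaving out the peaks at their ends. The RNA table used here gave 0 counts over its libraries to Ost4, against 1514 RPF counts. The counted region of Ost4 cannot hold an RNA read. The RNA table also has no row for Malat1, Meg3 or Xist. The resting ratio was therefore taken without length offset, and the offsets planned for whole transcripts became alternatives.

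edgeR 4.0.16 (R 4.3.3) was run on all genes with TMM scaling, filterByExpr, replicate number as a block and the quasi-likelihood test, with Benjamini-Hochberg adjustment, at 0.01 for RNA and 0.05 otherwise. Every adjusted p is from edgeR unless another tool is named. Same-numbered samples deviated together (r = 0.270 to 0.723 in RNA, 0.259 to 0.523 in RPF) and share a batch. DHPG RNA replicate 5 has no basal partner and adds nothing to the change. Changes per pair use log2 CPM with a prior count of 2. Replicate ratios use 0.05 CPM added. Positions and lengths come from GENCODE M21 (95.5% of genes matched), with the RefSeq-linked transcript of the longest coding sequence.

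The genes named are those past a threshold, the 3 smallest p in each direction, the 5 highest and lowest ratios, and 16 fixed members. Further genes were named after their values were seen. The members, lists and tests were chosen with earlier results of these data known. Alternatives were DESeq2 1.42.0 and its size factors, ComBat (sva 3.50.0), other filters and thresholds, no block, a length trend removed (loess, span 0.5), other offsets, a prior count of 0.5, a longer pyrimidine run and each replicate left out. The steps were tested on simulated data. Sequences come from RefSeq (GRCm38.p6). Single values of some genes are not reported here, although the counts and medians include them.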

Additional observations from a re-analysis of the deposited data

Results flagged for a closer look

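In 7 of 160 groups of 4 or 5 samples 1 sample stood far from the others, where chance gives about 8. In DHPG RNA, replicate 2 was at 292 CPM for Rpl11, against 199 to 219.8 CPM in the others, and at 24.9 CPM for Rpl39, against 11.4 to 14.5 CPM. Basal RPF replicate 1 was at 270.4 CPM for Rpl7, against 226 to 237 CPM. In DHPG RPF, replicate 4 was at 50.8 CPM for Rpl22 (58.1 to 60.8 CPM in the others) and at 117 CPM for Rpl30 (135 to 137 CPM), replicate 5 was at 182 CPM for Rpl28 (156 to 163 CPM), and replicate 3 was at 84.2 CPM for Rps29 (103 to 109.9 CPM). Both RNA values belong to the pair in which 73 of 76 members were higher after DHPG.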

How the results depend on the processing

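The resting ratio kept its direction throughout: the median of the members was between -1.24 and -1.04 over the 10 alternatives, with 58 to 67 genes called lower. With whole-transcript lengths as planned, 14 genes (longest transcript) or 9 (shortest) were called higher in place of 5. With the longest, 9 genes called lower turned positive: Rps20 (1.35), Rps15a (1.34), Rpl22 (1.22), Rpl18 (0.86), Rps24 (0.77), Rps25 (0.63), Rpl21 (0.36), Rpl15 (0.32) and Rpl35 (0.25). With each replicate left out, the genes called higher numbered 3 to 5. In RNA 2 genes were called with ComBat followed by DESeq2 (Rps23 and Rps15a), and 0 to 2 with a replicate left out. Rpl23 RNA (0.11) ran from -0.061, reversed without replicate 2, to 0.26 without replicate 4. In RPF 1 gene, Rpl7, was called without a filter, with DESeq2 and the replicate block, and with the length trend removed, and 0 to 1 with a replicate left out (Rpl7 without replicate 3 or 5). ComBat followed by DESeq2 called 9, all lower, among 433 genes in all against 29. In the fits without the replicate block, 0 members were called in RNA, RPF and TE, and 65 lower and 5 higher in the resting ratio. The TE median changed sign in 5 of 10 alternatives, to 0.074 without replicate 2 (65 genes above 0), and was -0.085 without replicate 4. With the length trend removed the medians were -0.0011 in RNA, -0.053 in RPF and -0.047 in TE. The pair medians kept their sign with a prior count of 0.5. Each sample pooled slices of several mice, and there were 4 or 5 pairs. In the RNA, RPF and resting ratio fits with the replicate block, p-values measure how the difference within a pair varies from pair to pair. For TE the block was replicate within assay. The changes in RNA and RPF of a replicate were thus not paired with each other, and RPF pair 5 entered without an RNA pair. Counts cannot separate reads of close copies.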
